A study of Mus musculus with 29 samples.

Results

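Interferon-stimulated genes are the genes that cells switch on when an interferon binds its receptor. The 36 members described here were taken by gene symbol, with no threshold on a measured value but with earlier results of these data known. All 36 were found in each table, of 24543 genes for day 3 epidermis, 24453 for day 3 dermis and 24081 for week 1. The libraries are bulk RNA-seq of skin from adult mice of mixed background, P42 to P46 by the series title, in which tamoxifen activated Cre, driven by the keratin 14 promoter, to delete Dlx3 (icKO), together with control mice (WT). Dlx3 encodes a homeodomain protein that acts in the upper layers of the epidermis and in hair follicles. Keratin 14 is made by basal keratinocytes, so dermal fibroblasts and immune cells were not the cells targeted. In all, 29 libraries fell into 10 groups. Day 3 epidermis had 4 WT and 4 icKO libraries given vehicle, and 3 WT and 4 icKO libraries given a STAT3 inhibitor (STAT3i, which the table headers do not name further). Day 3 dermis had 3 WT and 3 icKO libraries. At week 1 after tamoxifen there were 2 WT and 2 icKO libraries of epidermis, under topical tamoxifen by the table headers, and 2 WT and 2 icKO libraries of dermis, under intraperitoneal tamoxifen. A time after tamoxifen is labelled for WT and icKO libraries alike, and what alleles the WT mice carried was not given in the sources used here. Nothing says whether the libraries of a group came from separate animals, so p-values measure the spread between these libraries.

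As background, type I and type III interferons bind receptors that signal through the kinases JAK1 and TYK2 to a complex that contains IRF9 and binds the interferon-stimulated response element (ISRE) in target promoters. Cytosolic sensors of RNA and DNA start interferon synthesis, and many of these sensors are themselves induced by interferon. The products of the induced genes block viral replication, tag proteins, degrade RNA and limit the signal. In skin, keratinocytes, macrophages and dendritic cells can all carry out this response.

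The ISRE is the sequence bound by the complex that contains IRF9, and its core could be read in the promoters of some members. RefSeq promoter windows of build GRCm38.p6, running from 250 bases before to 50 bases after a gene's start, were at hand for 26 of the 36 members. The ISRE core, searched on both strands as GAAA, any 2 bases and GAAA again, was found in 12 of the 26 (46.2%) and in 3.99% of the 27025 genes with a window. The 12 were Isg15, Ifit1, Ifit3, Oas1a, Oas1g, Oas3, Rsad2, Bst2, Ddx58, Ifih1, Trim30a and Gbp3. The gamma-activated sequence, searched as TTC, any 3 bases and GAA, which reads alike on both strands, was found in 5 of the 26 (19.2%) and in 9.55% of all genes. A match is a run of letters and not a measured binding site. The 160 bases before the start are printed for 5 members whose levels are followed below, to show how the cores are placed. Capitals mark ISRE core matches, and a core that lies on the other strand reads as TTTC, 2 bases and TTTC. Isg15 lies at chr4:156200819-156200978 on the minus strand, Ifit1 at chr19:34640729-34640888 on the plus strand, Ifit3 at chr19:34583369-34583528 on the plus strand, Rsad2 at chr12:26456453-26456612 on the minus strand and Bst2 at chr8:71537473-71537632 on the minus strand.
Isg15: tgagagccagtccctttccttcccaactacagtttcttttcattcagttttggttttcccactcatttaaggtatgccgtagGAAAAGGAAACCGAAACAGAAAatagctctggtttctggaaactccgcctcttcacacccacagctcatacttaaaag
Ifit1: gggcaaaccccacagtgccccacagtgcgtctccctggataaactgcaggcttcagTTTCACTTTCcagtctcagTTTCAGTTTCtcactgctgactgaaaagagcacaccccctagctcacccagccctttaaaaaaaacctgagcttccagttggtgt
Ifit3: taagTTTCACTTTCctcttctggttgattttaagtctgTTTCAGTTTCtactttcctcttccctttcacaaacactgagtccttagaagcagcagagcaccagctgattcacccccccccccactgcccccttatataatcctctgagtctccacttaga
Rsad2: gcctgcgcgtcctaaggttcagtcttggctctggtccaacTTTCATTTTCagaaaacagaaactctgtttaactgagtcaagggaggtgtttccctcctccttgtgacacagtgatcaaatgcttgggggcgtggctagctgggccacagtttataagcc
Bst2: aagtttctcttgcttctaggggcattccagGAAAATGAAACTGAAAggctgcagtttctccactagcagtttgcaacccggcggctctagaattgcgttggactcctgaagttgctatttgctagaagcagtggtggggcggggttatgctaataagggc
The Isg15 window held 3 overlapping matches beginning 78, 72 and 66 bases before the start, and the Bst2 window held 2 overlapping matches beginning 130 and 124 bases before it, the first of which also overlapped a match to the gamma-activated sequence. Ifit1 and Ifit3 each held 2 separate matches on the other strand, and Rsad2 held 1.

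Levels are given as RPKM, reads per kilobase of transcript scaled to the reads of the library, and libraries of a group are lettered a to d in column order, as names only. A log2 change is a difference of group means of log2(RPKM + 1), with its standard error (SE). It was tested in limma across all genes of a table that reached 1 RPKM in enough libraries, with Benjamini-Hochberg adjustment, and a gene was called at an adjusted p under 0.05. The 3 tables were normalized separately, so no test crosses them, and day 3 and week 1 differ in table as well as in time. Libraries of day 3 epidermis held 48.9 to 70.3 M alignments and those of day 3 dermis 10.1 to 37.3 M, while week 1 libraries were recorded with 37.3 to 57.3 M reads. Markers of other tissues were present in the libraries labelled epidermis at day 3: the summed level of 6 fibroblast markers was 1880 to 13200 RPKM per library and that of 5 skeletal muscle markers was 4430 to 12300 RPKM, while week 1 epidermis held 37.4 to 90.3 RPKM and 7.81 to 24.1 RPKM. In a bulk sample, fewer cells of a type and less RNA per cell cannot be told apart. Dlx3 itself stood at 3.04, 0.95, 7.13 and 7.21 RPKM in WT vehicle, at 1.29 to 2.22 RPKM in icKO vehicle, at 6.07 to 6.77 RPKM in WT STAT3i and at 1.01 to 1.71 RPKM in icKO STAT3i, so the library labelled WT vehicle b lay below every icKO library.

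**Figure D1:**
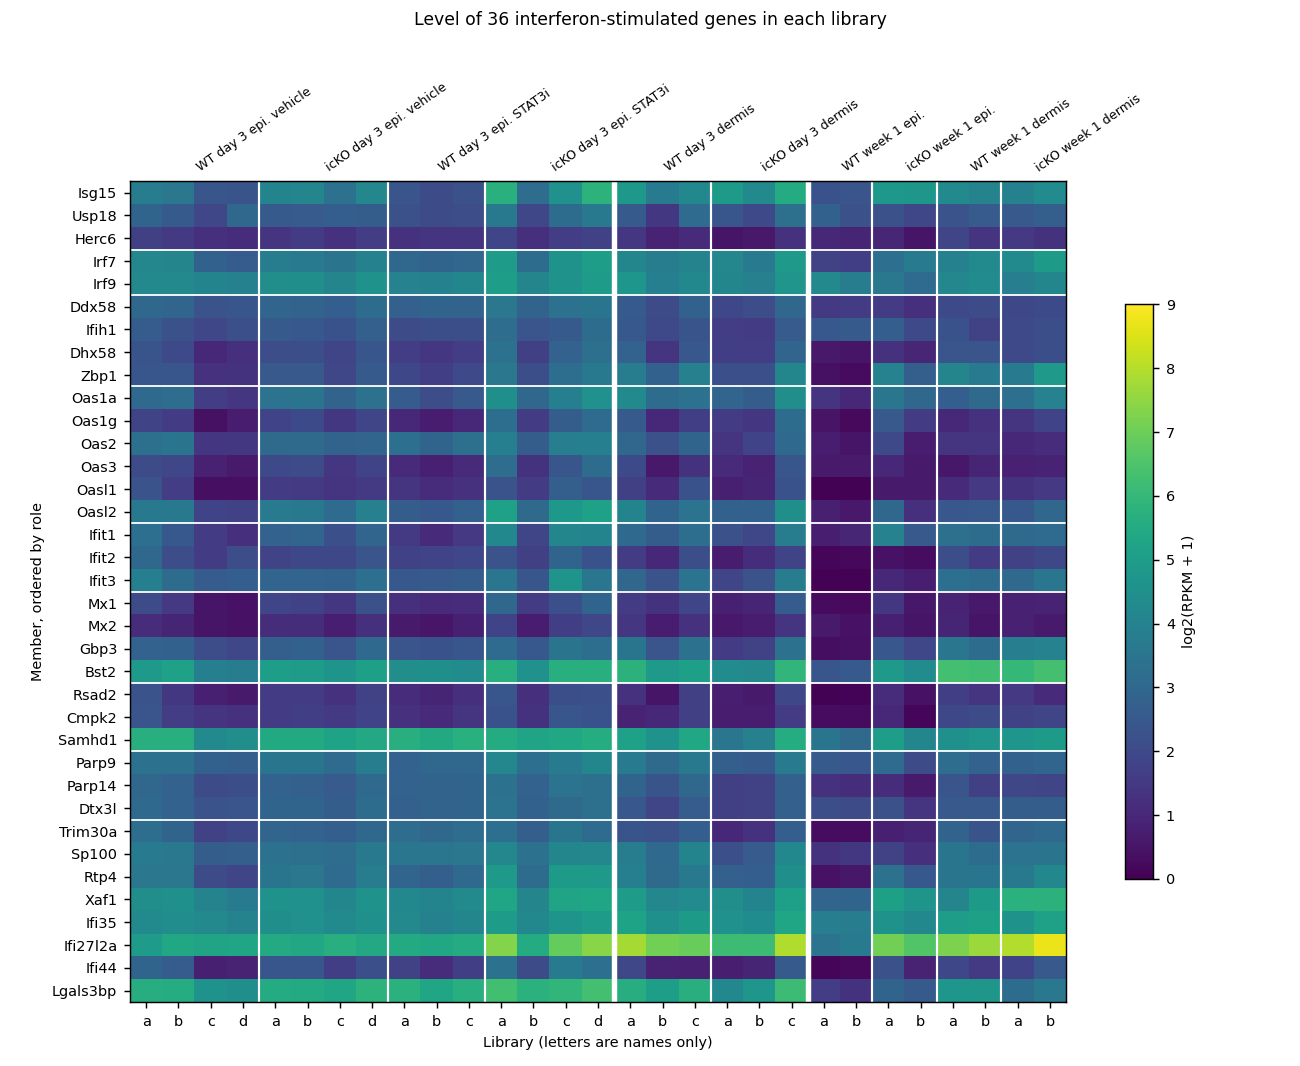
Level of each of the 36 members (rows, ordered by role) in each of the 29 libraries (columns, by group), as log2(RPKM + 1) on the colour scale. WT week 1 epidermis is the darkest block, Ifi27l2a the brightest row, and libraries of 1 group differ, as in icKO day 3 epidermis STAT3i, where library b is darker than a, c and d.

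The question of the vehicle comparison is how Dlx3 deletion changed the epidermis 3 days after tamoxifen. None of the 36 members passed the test in either direction, where 12.8% of the 13095 genes tested were called, 9.12% higher and 3.7% lower in icKO. The log2 change was positive for 33 members, with a median of 0.34 over the members and 0.04 over all genes. By limma, 1 member had an unadjusted p under 0.05, the oligoadenylate synthetase Oas1a at 0.94 ± 0.41 (SE), with an adjusted p of 0.136. The SE of a member ranged from 0.15 to 0.50.

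The WT libraries differed widely among themselves. Isg15, a ubiquitin-like protein that is conjugated to other proteins, stood at 13.1, 10.9, 4.3 and 4.02 RPKM in WT libraries a to d, and at 15.8, 16, 9.27 and 16.8 RPKM in icKO. Ifit1, which binds viral RNA that lacks host cap marks, stood at 8.72, 4.62, 1.98 and 1.34 RPKM in WT, against 6.17, 6.56, 3.62 and 6.66 RPKM in icKO. For Oasl2, an oligoadenylate synthetase-like protein, WT libraries held 11.6, 11.5, 2.52 and 2.31 RPKM and icKO libraries 12.5, 11.4, 7.79 and 14.1 RPKM. In each of these genes WT a and b lay near the icKO libraries and WT c and d below all of them.

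The same order held across the members. Averaged over the 36 members, the level on the log2(RPKM + 1) scale was 3.25 and 3.04 in WT a and b, 2.14 and 2.16 in WT c and d, and 2.76 to 3.21 in icKO. Macrophage markers moved with it: the summed level of 6 markers was 1250 and 1230 RPKM in WT a and b, 229 and 270 RPKM in WT c and d, and 905 to 1110 RPKM in icKO, with none of the 6 at 0. Their part in the result was not tested. Among the icKO libraries, c was lowest for 33 of 36 members, and it is the library that carried both Xist (7.2 RPKM) and the Y-linked Ddx3y (5.88 RPKM), where every other day 3 epidermis library carried 1 of the 2 at 1 RPKM or more.

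Sex was not balanced between these vehicle groups. WT a, b and d carried Ddx3y and WT c carried Xist, while icKO a, b and d carried Xist alone, and with a term for sex 0 of the 36 members passed, as in the fit without it. The icKO libraries a and b were also unusually alike, with an SD of their log2 difference over genes of 0.0736 against 0.226 to 0.345 for the other icKO pairs. These 4 icKO libraries enter the vehicle test, the test of the inhibitor within icKO and the interaction test. No member passed any of these with the closest pair averaged in each of 3 groups. How many of all genes were called is not given for these fits or for the fit with sex. Their lack of calls cannot be read as particular to the members. Mast cell markers were higher in icKO in 5 of 5, with a median of 0.67, and melanocyte markers in 3 of 4, with a median of 0.99, and neither was tested for its part in the members' values.

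Other members are given by library to show how far the pattern held in vehicle-treated epidermis. Irf7, the transcription factor that amplifies interferon synthesis, stood at 16.9, 16.3, 5.94 and 5.13 RPKM in WT, against 13, 12.1, 9.93 and 14.5 RPKM in icKO. Bst2, a membrane protein that tethers budding virions, held 28.4, 34.9, 13.6 and 13 RPKM in WT, against 31.8, 30.8, 24 and 32.5 RPKM in icKO. Every icKO library lay above WT c and d and below the higher of WT a and b in both genes.

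Oas2, another oligoadenylate synthetase, stood at 8.89, 9.95, 1.68 and 1.72 RPKM in WT, against 7.67, 7.66, 6.32 and 6.6 RPKM in icKO. Mx1, a GTPase that blocks influenza virus, stood at 3.24, 1.84, 0.433 and 0.347 RPKM in WT, against 2.65, 2.35, 1.66 and 3.74 RPKM in icKO. Zbp1, a sensor of Z-form nucleic acid, stood at 4.3, 4.33, 1.46 and 1.51 RPKM in WT, against 4.77, 4.69, 2.75 and 4.81 RPKM in icKO. In all 3 the icKO libraries fell within the range of the WT libraries or only just above it.

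For Rsad2, which makes a chain-terminating nucleotide, WT libraries held 3.89, 1.72, 0.735 and 0.562 RPKM and icKO libraries 1.98, 2.06, 1.41 and 2.42 RPKM. Ifit3, a partner of Ifit1, stood at 13.8, 8.18, 5.07 and 5.48 RPKM in WT, against 6.65, 6.6, 6.32 and 8.72 RPKM in icKO. Lgals3bp, a secreted glycoprotein that binds galectins, stood at 47.9, 46.8, 23.2 and 21.1 RPKM in WT, against 45.2, 44.2, 39.5 and 56.1 RPKM in icKO. WT a was the highest of the 8 libraries for Rsad2 and Ifit3, and icKO d for Lgals3bp.

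Usp18, the protease that removes Isg15 and damps the receptor, stood at 6.42, 4.92, 2.75 and 7.15 RPKM in WT, against 4.87 to 5.41 RPKM in icKO. Ifi27l2a, a small membrane protein strongly induced by interferon in mice, stood at 29.7, 41.1, 37.5 and 37.7 RPKM in WT, against 43.9, 41.3, 50 and 42 RPKM in icKO. These values of Ifi27l2a did not overlap between the genotypes, though its change of 0.28 ± 0.30 had an adjusted p of 0.543.

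Whether Dlx3 deletion acts alike when STAT3 is inhibited was asked in libraries given the inhibitor. In icKO against WT, 23 of the 36 members rose and none fell, where 34% of the 13241 genes tested were called, 19.9% higher and 14.1% lower. The median log2 change was 0.89 over the members and 0.02 over all genes. For 20 members every icKO library lay above every WT library, as it did for 27.5% of all genes tested. Mx2, which rose, reached the filter through icKO alone. By role, all 4 of the GTPases and membrane effectors rose (Mx1, Mx2, Gbp3 and Bst2), both transcription factors (Irf7 and Irf9), 4 of 6 oligoadenylate synthetases, 3 of 4 nucleic acid sensors, 2 of 3 genes of the Isg15 system, 1 of 3 Ifit genes, 1 of 3 genes of nucleotide metabolism (Cmpk2), 1 of 3 of the ADP-ribosylation and ubiquitin group (Parp9) and 5 of the 8 others.

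Isg15 stood at 4.2, 3.27 and 3.67 RPKM in the 3 WT libraries and at 51.4, 8.28, 22.5 and 55.4 RPKM in icKO libraries a to d. Its log2 change of 2.59 ± 0.53 (adjusted p 0.0027, limma) was the largest among the members. All 4 icKO libraries lay above all WT libraries, but icKO b lay far below the other icKO libraries.

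Ifit1 stood at 1.92, 1.15 and 1.83 RPKM in WT, against 17.6, 2.69, 16.4 and 15.6 RPKM in icKO, a change of 2.18 ± 0.54 (adjusted p 0.00768). Oasl2 stood at 5.35, 4.51 and 5.81 RPKM in WT, against 34.5, 7.57, 26.8 and 34.8 RPKM in icKO, a change of 1.92 ± 0.54 (adjusted p 0.0146). In both, icKO b was again the low library and stood nearer the WT values.

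Oas1g rose by 1.75 ± 0.38 (adjusted p 0.00397), Oas1a by 1.57 ± 0.44 (adjusted p 0.0145) and Oas3 by 1.53 ± 0.43 (adjusted p 0.0145), 3 members of the family whose oligoadenylates switch on RNase L. Oas1a and Oas1g are near-identical neighbours on chromosome 5, and how the authors' counting divided reads between such copies was not given, so their separate levels are uncertain. Ifi44, an interferon-induced cytoplasmic protein, rose by 1.59 ± 0.50 (adjusted p 0.0246), and Rtp4, a receptor chaperone, by 1.52 ± 0.46 (adjusted p 0.021). The other 15 members that rose did so by 0.58 to 1.48.

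The 15 were Irf7, Ifi27l2a, Zbp1, Mx1, Dhx58, Usp18, Bst2, Parp9, Mx2, Cmpk2, Xaf1, Gbp3, Ifih1, Irf9 and Ifi35. Irf7 stood at 7.06, 6.48 and 6.86 RPKM in WT, against 30.2, 8.04, 23.3 and 31.4 RPKM in icKO. Bst2 stood at 20.8, 21.1 and 19.2 RPKM in WT, against 49.5, 22.2, 48.7 and 50.1 RPKM in icKO. Library icKO b lay just above the WT libraries in both genes, while a, c and d stood well apart.

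Ifi27l2a stood at 44.8, 40.1 and 45.4 RPKM in WT, against 159, 45.6, 117 and 168 RPKM in icKO. Zbp1 stood at 2.9, 2.2 and 2.96 RPKM in WT, against 11, 3.53, 8.56 and 11.4 RPKM in icKO. Mx1 stood at 1.34, 1.09 and 1.2 RPKM in WT, against 6.95, 2.03, 3.57 and 6.53 RPKM in icKO. The groups did not overlap in any of the 3, though icKO b cleared the WT libraries of Ifi27l2a by little. Usp18 had 3.69, 3.11 and 3.42 RPKM in WT, against 11.6, 2.8, 8.14 and 11.6 RPKM in icKO, so that icKO b lay below the WT libraries.

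The 13 members not past the threshold had log2 changes from -0.19 to 0.97. They were Ifit2, Ifit3, Oas2, Oasl1, Rsad2, Ddx58, Herc6, Parp14, Dtx3l, Trim30a, Sp100, Samhd1 and Lgals3bp. Rsad2 came closest, at 1.22, 0.894 and 1.3 RPKM in WT, against 4.25, 1.39, 3.48 and 3.62 RPKM in icKO, a change of 0.91 ± 0.34 with an adjusted p of 0.0507. Ifit3 stood at 4.54, 4.87 and 5.33 RPKM in WT, against 10.7, 4.25, 24 and 10.6 RPKM in icKO, a change of 0.97 ± 0.40 (adjusted p 0.0742). In both genes it was icKO b that lay near or below the WT libraries.

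Oas2 stood at 8.76, 6.52 and 9.04 RPKM in WT, against 13.6, 5.24, 13.5 and 13.6 RPKM in icKO. Lgals3bp stood at 52.3, 37.7 and 50.1 RPKM in WT, against 76.4, 53, 59.3 and 77.9 RPKM in icKO. The groups overlapped for Oas2 and did not for Lgals3bp, whose change of 0.50 ± 0.27 had an adjusted p of 0.16. Samhd1, which hydrolyses deoxynucleotides, had a change of -0.19 ± 0.28 and Trim30a, a ubiquitin ligase of a family of near-identical copies, 0.01 ± 0.29, both with groups that overlapped.

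Library b was the lowest icKO STAT3i library for 36 of 36 members. The mean member level was 3.93, 2.75, 3.74 and 3.91 in icKO libraries a to d and 2.49 to 2.68 in WT. The macrophage sum was 1070 RPKM in b and 897 to 1100 RPKM in a, c and d, and 1510 to 1900 RPKM in WT, with none of the 6 markers called between the genotypes and none at 0. The sum of 6 Langerhans and dendritic cell markers was 1460 to 2110 RPKM in icKO and 3430 to 4060 RPKM in WT, with 4 lower and 1 higher. Fibroblast markers summed to 2600 to 3800 RPKM in icKO and 8750 to 10600 RPKM in WT, with 4 of 6 lower and a median of -1.07. Among keratinocyte markers, 3 of 6 basal ones were higher in icKO, and of 5 suprabasal ones 2 were higher and 1 lower. The part of any of these cells in the members' change was not tested. Without icKO b, 27 members rose and the median was 1.15. Without icKO a, c or d, 11, 15 or 11 members rose, and without WT a, b or c, 11, 9 or 13. No share of all genes called is given for these fits, so the counts cannot be read as particular to the members. Isg15, Ifit1, Oasl2 and Oas1g passed whichever library was left out, Oas1a and Oas3 failed only without WT b, and Ifi44 and Rtp4 failed when any 1 library other than icKO b was left out.

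The count of 23 also moved with sex and with libraries that resemble each other. Every WT STAT3i library carried Ddx3y and every icKO STAT3i library carried Xist, so sex and genotype differ together in this comparison, and with a term for sex, which only the vehicle libraries can estimate, 0 of the 36 members passed, 450 genes of the table did, and the members' median was 1.33. Isg15 then had 2.96 with an adjusted p of 0.0899 in limma. The icKO libraries a and d were also unusually alike, with an SD of their log2 difference over genes of 0.08 against 0.26 to 0.30 for the other icKO pairs. With the closest pair averaged to 1 value in each of 3 groups, 1 member, Isg15, passed, as did 1801 genes of the table, and the members' median was 0.80.

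**Figure D2:**
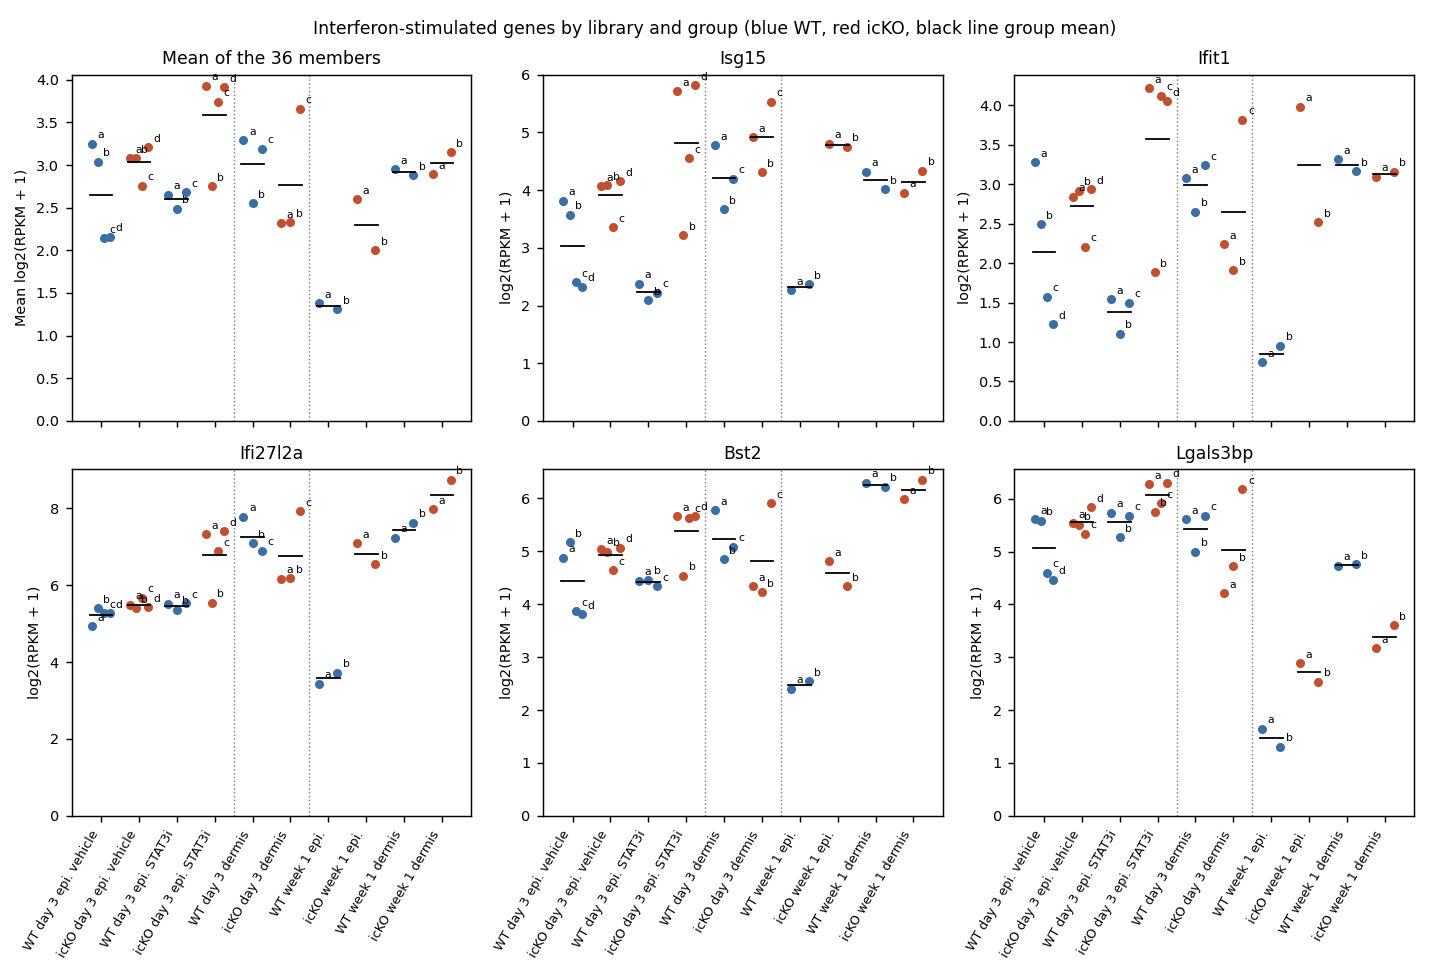
Level of the members by library as log2(RPKM + 1), with 1 point per library, letters naming libraries, and a black line at each group mean; the first panel is the mean over the 36 members and the others show Isg15, Ifit1, Ifi27l2a, Bst2 and Lgals3bp. In icKO day 3 epidermis STAT3i, libraries a, c and d stand above every WT STAT3i library and b stands close to them, and in week 1 epidermis both icKO libraries stand above both WT libraries.

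Whether the inhibitor itself moved the members was asked within each genotype, and these comparisons share their libraries with those above. In icKO, all 36 members had a positive log2 change from vehicle to inhibitor, with a median of 0.51 against -0.01 over all genes. Only Ifi27l2a passed, by 1.29 ± 0.30 (adjusted p 0.0294), where 5.56% of the 13074 genes tested were called, 2.81% higher and 2.75% lower. It went from 41.3 to 50 RPKM in the 4 vehicle libraries to 159, 45.6, 117 and 168 RPKM, so icKO b fell inside the vehicle range. This single call was lost when icKO vehicle a, b or c or icKO STAT3i a or d was left out. Without icKO STAT3i b 3 members passed, with no share of all genes given to read the 3 against.

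In WT, none of the 35 members tested passed, where 18.8% of the 13211 genes tested were called, 10.9% higher and 7.86% lower. Their median change was -0.08, and Isg15 had -0.80 ± 0.53 (adjusted p 0.301). By limma 2 members had an unadjusted p under 0.05, Trim30a at 0.70 ± 0.29 and Samhd1 at 0.59 ± 0.28, both higher with the inhibitor. Of 6 macrophage markers, 5 rose in the same comparison, with a median of 1.63 over the list, and their part in the members' values was not tested.

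The test of the difference itself is the genotype by inhibitor interaction. None of the 36 members passed it, where 2.14% of the 13563 genes tested were called, 0.73% higher and 1.41% lower. The interaction was positive for 33 members, with a median of 0.61, and 4 had an unadjusted p under 0.05 in limma: Isg15 at 1.71 ± 0.73 (adjusted p 0.173), Ifit1 at 1.60 ± 0.74 (adjusted p 0.203), Ifi27l2a at 1.04 ± 0.44 (adjusted p 0.169) and Cmpk2 at 0.86 ± 0.36 (adjusted p 0.165). The 95% interval for Isg15 ran from 0.28 to 3.14. The calls under the inhibitor and their absence in vehicle were therefore not shown to differ for any member.

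In day 3 dermis no gene of the 13017 tested was called, 0% in either direction, and so none of the 35 members tested. By limma none of the members had an unadjusted p under 0.05. The median member change was -0.25 against -0.01 over all genes, and the SE of a member was 0.26 to 0.60. These libraries did not follow their labels in Dlx3, which stood at 3.58, 20.5 and 2.19 RPKM in the libraries labelled WT and at 64.3, 65.9 and 1.75 RPKM in those labelled icKO.

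Hair shaft genes split the same libraries. The summed level of 6 hair shaft markers was 1130 RPKM in WT b, 4540 and 5380 RPKM in icKO a and b, and 2.53 to 4.85 RPKM in the other libraries. The mean member level was 3.29, 2.55 and 3.19 in WT a to c and 2.32, 2.33 and 3.66 in icKO a to c, so the 3 libraries with hair shaft transcripts were the 3 lowest, and they also had the lowest macrophage sums, at 650, 186 and 295 RPKM against 1140 to 1420 RPKM. No part of either in the members' levels was tested. The library labelled icKO c was the highest of its group for 36 of 36 members, and without it 9 members were lower in icKO with a median of -0.68. The share of all genes called without icKO c is not given here, so the 9 cannot be read as particular to the members.

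Isg15 stood at 26.5, 11.7 and 17.4 RPKM in WT, against 29.3, 18.9 and 45.4 RPKM in icKO. Ifi27l2a stood at 219, 136 and 118 RPKM in WT, against 71, 71.8 and 242 RPKM in icKO. Zbp1 stood at 12.7, 5.93 and 14.3 RPKM in WT, against 3.62, 3.61 and 16.4 RPKM in icKO. The icKO libraries enclosed the WT libraries for Zbp1 and Ifi27l2a, and Isg15 had a positive change of 0.71 ± 0.40 (adjusted p 0.419).

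Bst2 stood at 54, 27.9 and 33 RPKM in WT, against 19.2, 17.7 and 59 RPKM in icKO. Ifit1 stood at 7.45, 5.29 and 8.47 RPKM in WT, against 3.72, 2.75 and 13.1 RPKM in icKO. Ifit3 stood at 6.84, 3.89 and 9.74 RPKM in WT, against 2.64, 3.96 and 13 RPKM in icKO. Library icKO c was the highest of the 6 in all 3 genes.

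Irf7 stood at 16.4, 13 and 15.2 RPKM in WT, against 16.8, 12.5 and 28.2 RPKM in icKO. Oas2 stood at 6.91, 3.73 and 6.39 RPKM in WT, against 1.62, 2.55 and 7.51 RPKM in icKO. Oasl2 stood at 15.8, 6.52 and 9.64 RPKM in WT, against 5.88, 5.92 and 21.5 RPKM in icKO. Library icKO c was again the highest for these, as it was for Mx1, Rsad2, Usp18 and Lgals3bp.

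Mx1 stood at 1.97, 1.5 and 2.68 RPKM in WT, against 0.751, 0.92 and 5.17 RPKM in icKO. Rsad2 stood at 1.42, 0.416 and 2.28 RPKM in WT, against 0.688, 0.577 and 2.91 RPKM in icKO. Usp18 stood at 4.87, 1.72 and 7.92 RPKM in WT, against 4.3, 3 and 8.9 RPKM in icKO. Lgals3bp, last of the members followed by library, stood at 47.8, 31 and 50.1 RPKM in WT, against 17.5, 25.3 and 71.5 RPKM in icKO.

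The week 1 comparison asks what had changed in the epidermis by a later time after deletion. In icKO against WT epidermis, 13 of the 23 members tested rose and none fell, where 55.3% of the 11796 genes tested were called, 11.7% higher and 43.6% lower. The other 13 members did not reach 1 RPKM in 2 of the 4 libraries and were not tested, and a member low in WT could enter the test only if it was high in icKO. For 6 members, Ifit1, Oas1g, Oasl2, Zbp1, Rtp4 and Gbp3, both WT libraries were below 1 RPKM, and all of them but Oasl2 are among the 13. Of the other 17 tested, 8 rose. Quantile normalization moved the median change of all genes from -0.50 to -0.05, and 14 members were then higher. Under it 2357 of 4972 called genes were higher, against 1377 of 6524 in the scale as deposited.

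Ifi27l2a changed most. It stood at 9.81 and 12.2 RPKM in WT, against 135 and 92.3 RPKM in icKO, a log2 change of 3.24 ± 0.24 (adjusted p 0.002, limma). Isg15 stood at 3.82 and 4.17 RPKM in WT, against 26.9 and 26 RPKM in icKO, a change of 2.46 ± 0.16 (adjusted p 0.00165). In both genes the 2 libraries of each genotype lay close together and far from the other genotype.

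Zbp1 stood at 0.33 and 0.199 RPKM in WT, against 14.7 and 5.68 RPKM in icKO, a change of 3.02 ± 0.42 (adjusted p 0.00491). Ifit1 stood at 0.674 and 0.936 RPKM in WT, against 14.8 and 4.73 RPKM in icKO, a change of 2.40 ± 0.49 (adjusted p 0.0132). Here the icKO libraries differed by more, with a above b. Bst2 stood at 4.28 and 4.82 RPKM in WT, against 27.2 and 19.3 RPKM in icKO, a change of 2.11 ± 0.22 (adjusted p 0.00295).

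Rtp4 rose by 2.41 ± 0.31 (adjusted p 0.00429), Oas1a by 2.09 ± 0.25 (adjusted p 0.00367) and Xaf1, which binds an inhibitor of apoptosis, by 1.98 ± 0.22 (adjusted p 0.00319). The other 5, Gbp3, Irf7, Oas1g, Samhd1 and Lgals3bp, rose by 1.24 to 1.84. Irf7 stood at 2.35 and 2.21 RPKM in WT, against 8.75 and 11.7 RPKM in icKO, and Lgals3bp at 2.13 and 1.47 RPKM in WT, against 6.41 and 4.82 RPKM in icKO.

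The 10 tested members not past the threshold had changes from -0.67 to 1.44. They were Irf9, Oasl2, Usp18, Ddx58, Ifih1, Ifi35, Parp9, Parp14, Dtx3l and Sp100. They include 2 of the 3 cytosolic RNA helicases, Ddx58 (RIG-I) and Ifih1 (MDA5), and the other, Dhx58, was not tested. Irf9, the DNA-binding part of the interferon complex, stood at 18 and 13.1 RPKM in WT, against 11.1 and 7.78 RPKM in icKO, a change of -0.67 ± 0.25 (adjusted p 0.0746). None of Parp9, Parp14 and Dtx3l passed, although Parp9 and Dtx3l are partners in 1 complex and neighbours on chromosome 16.

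Oasl2 stood at 0.716 and 0.55 RPKM in WT, against 7.21 and 1.38 RPKM in icKO, a change of 1.44 ± 0.58 (adjusted p 0.0887). Usp18 stood at 5.99 and 3.74 RPKM in WT, against 3.75 and 2.76 RPKM in icKO. Among members not tested, Mx1 stood at 0.2 and 0.164 RPKM in WT, against 1.77 and 0.489 RPKM in icKO, and Rsad2 at 0.0413 and 0.0701 RPKM in WT, against 1.2 and 0.342 RPKM in icKO. Ifit3 stood at 0.0448 and 0.0408 RPKM in WT, against 1.05 and 0.682 RPKM in icKO, and Oas2 at 0.662 and 0.417 RPKM in WT, against 3 and 0.656 RPKM in icKO.

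Library icKO a was the higher of the 2 for 33 of 36 members, with a mean member level of 2.6 against 2 in b, and 1.38 and 1.31 in the WT libraries. The sums of macrophage and of neutrophil markers were higher in b than in a. Among single neutrophil markers, Cxcr2 (9.72 RPKM in a, 9.32 RPKM in b) and Mpo (0.235 and 0.0226 RPKM) were lower in b. Of the macrophage markers Csf1r alone was lower in both icKO libraries, at 1.74 and 3.77 RPKM, than in WT, at 6.37 and 4.75 RPKM. The summed level of the 5 macrophage markers found was 53.2 RPKM in a and 246 RPKM in b, against 14.7 and 12.8 RPKM in WT, and that of 5 neutrophil markers was 47.3 and 164 RPKM against 2.8 and 3.43 RPKM. In the test 3 of 5 macrophage and 3 of 4 neutrophil markers rose and none fell, no macrophage marker was at 0, and the part of these cells in the members' change was not tested. Langerhans and dendritic cell markers summed to 143 RPKM in both icKO libraries and to 727 and 561 RPKM in WT, with 4 of 5 lower. Suprabasal keratinocyte markers summed to 2400 and 903 RPKM in icKO and to 10000 and 9380 RPKM in WT, with 4 of 5 lower and a median of -3.24. Of the basal markers 3 of 6 were lower and 1 higher, and of the fibroblast markers 3 of 5 were lower and 1 higher. T and NK cell markers were lower in 3 of 3, at 12.4 and 2.23 RPKM in icKO, against 35.3 and 38.5 RPKM in WT. No part of these in the members' values was tested.

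Each group had 2 libraries, and the count of 13 rests on both WT libraries. Without WT a or WT b no gene of the table was called, without icKO a 14 members rose and 8 fell, and without icKO b 23 rose and 1 fell. With 1 library left in a group, that library is assumed to vary like the other group. The share of all genes called without icKO a or icKO b is not given here, so those counts cannot be read as particular to the members. A genotype field disagrees with the title for 1 sample titled WT and 1 titled icKO of this tissue, and the title and table header were followed. Dlx3 stood at 3.17 and 5.79 RPKM in WT, against 1.46 and 1.82 RPKM in icKO.

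**Figure D3:**
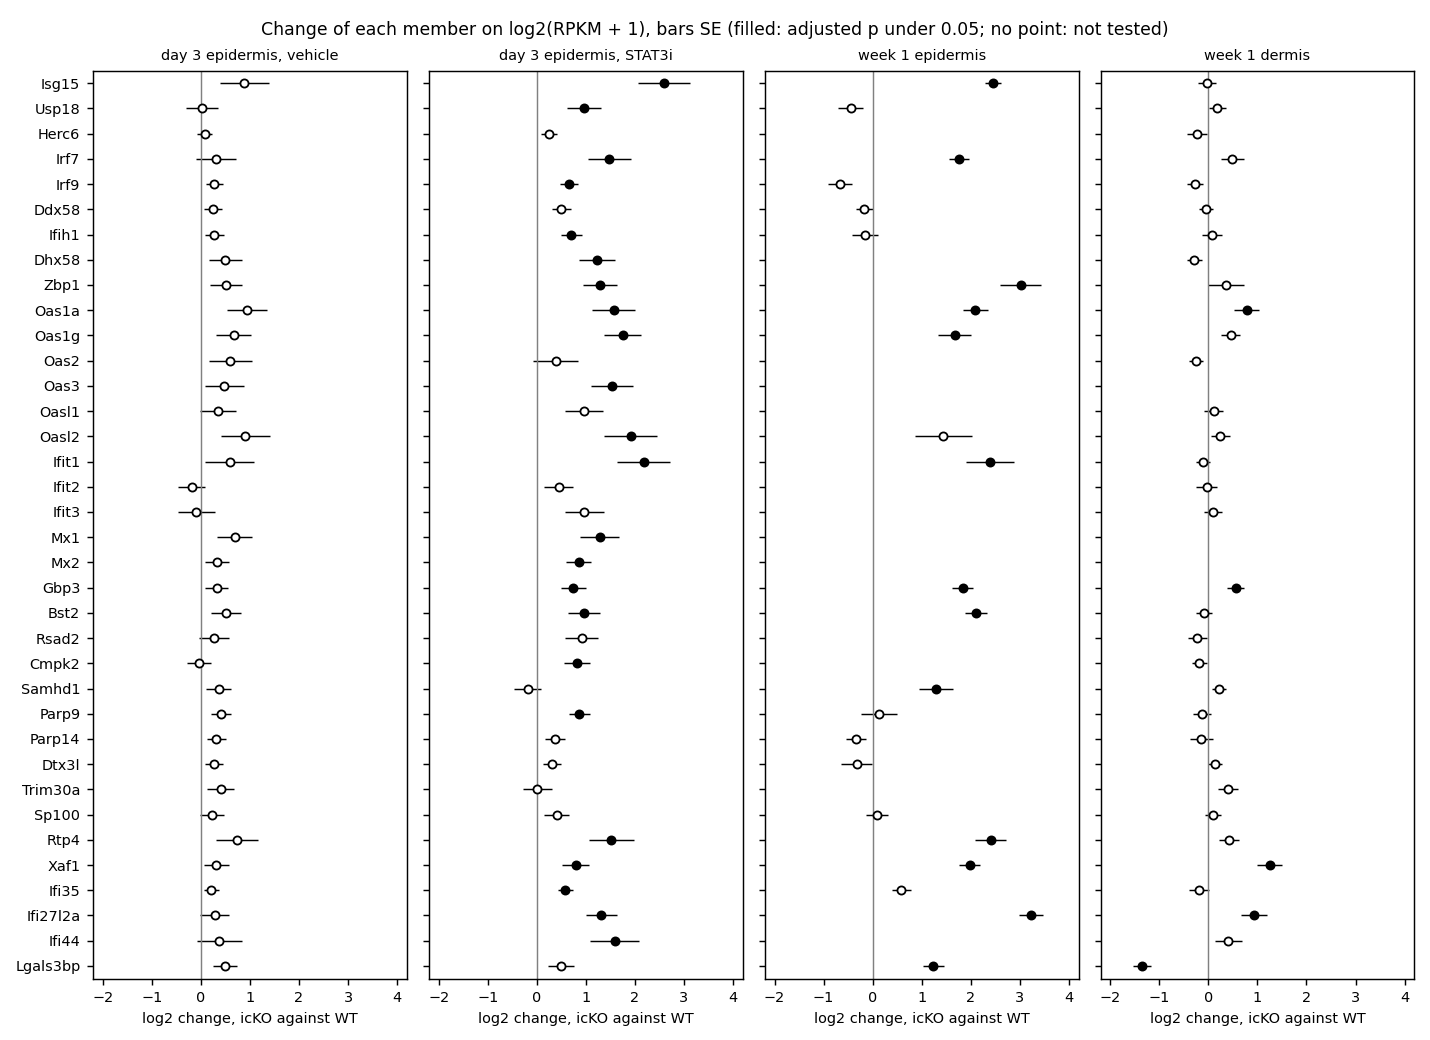
Log2 change of each member, icKO against WT, on log2(RPKM + 1) in 4 comparisons, with bars for the SE; filled points have an adjusted p under 0.05, and members without a point were not tested. No point is filled in vehicle-treated day 3 epidermis, 23 are filled with the STAT3 inhibitor, 13 in week 1 epidermis and 5 in week 1 dermis, where Lgals3bp is the single filled point below 0.

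The same question was asked of week 1 dermis, where keratin 14 is made in the hair follicles and not in the fibroblasts. In icKO against WT dermis, 4 of the 33 members tested rose and 1 fell, where 49.3% of the 12744 genes tested were called, 8.41% higher and 40.9% lower. The median member change was 0.09 and that of all genes -0.38. With quantile normalization the median of all genes was 0.00, that of the members 0.52, and 13 members rose, including the 4. How many of all genes then rose is not given here, so the 13 have no share to be read against.

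Lgals3bp fell, from 25.5 and 26.1 RPKM in WT to 7.98 and 11.2 RPKM in icKO, a log2 change of -1.36 ± 0.18 (adjusted p 0.00267). Xaf1 rose from 16.2 and 29.2 RPKM to 52.3 and 54.2 RPKM, a change of 1.25 ± 0.26 (adjusted p 0.00925). Ifi27l2a rose from 150 and 197 RPKM to 250 and 428 RPKM, a change of 0.93 ± 0.27 (adjusted p 0.0279). In these 3 genes the genotypes did not overlap, which with 2 libraries per group sets them little apart. Of the 33 members tested, 10 lay wholly higher and 6 wholly lower in icKO, while 4 and 1 were called. The share of all genes without overlap is not given here.

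Oas1a rose from 5.38 and 7.6 RPKM to 9.12 and 15 RPKM, a change of 0.78 ± 0.26 (adjusted p 0.0448), and Gbp3, a guanylate-binding GTPase of a family of similar copies, rose from 10.6 and 8.08 RPKM to 13.3 and 14.9 RPKM, a change of 0.56 ± 0.17 (adjusted p 0.0365). The 28 members not past the threshold had changes from -0.29 to 0.49. With no filter on low genes no member rose and Lgals3bp fell, with no share of all genes given to read this against. Lgals3bp and Xaf1 passed whichever library was left out, Ifi27l2a and Oas1a failed without WT a or icKO b, and Gbp3 failed without WT b, icKO a or icKO b.

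Isg15, Ifit1, Bst2 and Zbp1, which rose in week 1 epidermis, did not pass in dermis. Isg15 stood at 19 and 15.2 RPKM in WT, against 14.5 and 19.2 RPKM in icKO, a change of -0.02 ± 0.19. Ifit1 stood at 8.95 and 7.99 RPKM in WT, against 7.54 and 7.93 RPKM in icKO, and Bst2 at 77.5 and 73.7 RPKM in WT, against 62.3 and 80.5 RPKM in icKO. Zbp1 stood at 16.1 and 11.9 RPKM in WT, against 11.7 and 27.5 RPKM in icKO. For Isg15, Bst2 and Zbp1 the WT libraries lay inside the icKO range.

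Irf7 stood at 14.4 and 18.3 RPKM in WT, against 18.4 and 29.3 RPKM in icKO, Ifit3 at 8.67 and 8.06 RPKM in WT, against 7.49 and 10.7 RPKM in icKO, and Oasl2 at 4.49 and 4.72 RPKM in WT, against 4.58 and 6.91 RPKM in icKO. Oas2 stood at 1.59 and 1.54 RPKM in WT, against 1.06 and 1.22 RPKM in icKO, Mx1 at 0.834 and 0.524 RPKM in WT, against 0.765 and 0.869 RPKM in icKO. Rsad2 stood at 2.15 and 1.63 RPKM in WT, against 1.85 and 1.13 RPKM in icKO, and Usp18 at 3.94 and 4.97 RPKM in WT, against 4.69 and 5.64 RPKM in icKO. No change among these 7 was past the threshold, and Mx1 was not tested.

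The summed level of macrophage markers in dermis was 1170 and 1150 RPKM in icKO against 686 and 717 RPKM in WT, and 3 of 5 rose. Hair shaft markers, at 66.7 and 74.5 RPKM in WT, against 2.84 and 4.14 RPKM in icKO, fell in 6 of 6. Basal keratinocyte markers fell in 6 of 6, with a median of -1.92, suprabasal ones in 5 of 5, with a median of -2.25, and endothelial ones in 5 of 5, with a median of -1.21. None of these lists was tested for its part in the members' values. WT a carried Xist (10.7 RPKM) and WT b Ddx3y (8.45 RPKM), while both icKO libraries carried Ddx3y (14.1 and 12.2 RPKM), so sex was not balanced. Dlx3 stood at 2.81 and 5.21 RPKM in WT, against 0.14 and 0.167 RPKM in icKO.

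The change in icKO differed between the tissues at week 1. In the tissue by genotype interaction, 11 of 33 members passed and all 11 were positive, meaning a more positive change in epidermis than in dermis, where 32.5% of the 13539 genes tested were called, 15.3% higher and 17.2% lower. The largest were Zbp1 at 2.67 ± 0.67 (adjusted p 0.022), Lgals3bp at 2.60 ± 0.30 (adjusted p 0.0017), Ifit1 at 2.52 ± 0.58 (adjusted p 0.0161), Isg15 at 2.48 ± 0.25 (adjusted p 0.00113), Ifi27l2a at 2.31 ± 0.42 (adjusted p 0.00737), Bst2 at 2.20 ± 0.28 (adjusted p 0.0023), Rtp4 at 1.99 ± 0.42 (adjusted p 0.0124) and Oas1a at 1.31 ± 0.41 (adjusted p 0.0453). Gbp3, Irf7 and Dhx58 followed at 0.85 to 1.28. For Lgals3bp, which rose in epidermis and fell in dermis, the directions were opposite. The route of tamoxifen differed between the tissues by the table headers, so tissue and route cannot be told apart.

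The count depended on single libraries: it was 4 without WT epidermis a or icKO dermis a, 5 without WT epidermis b, 7 without WT dermis b and 22 without icKO epidermis b. Isg15, Lgals3bp, Bst2 and Ifi27l2a passed whichever library was left out, while Zbp1, Ifit1, Rtp4 and Oas1a did not.

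The WT tissues themselves differed at week 1. Between them, 26 of 33 members were lower in epidermis than in dermis and none was higher, where 59.3% of the 13108 genes tested were called, 33.9% lower and 25.5% higher. Of the 33, 15 were below 1 RPKM in both epidermis libraries and were tested only through dermis, 13 of which were lower, as were 13 of the other 18. The median difference over all genes, epidermis minus dermis, was -0.07. Quantile normalization put it at 0.11, with 21 members lower and 1 higher. Neither this fit nor those that follow have a share of all genes here, so their counts cannot be read as particular to the members. Leaving out 1 library gave 20 to 24 members lower. The route of tamoxifen also differed between these WT groups, so tissue and route cannot be told apart here. Sex was not balanced between them either. WT epidermis a and b carried Ddx3y (22 and 26.7 RPKM), while WT dermis a carried Xist (10.7 RPKM) and WT dermis b Ddx3y (8.45 RPKM). The part of route or sex in the difference was not tested.

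The largest differences were those of Ifi27l2a at -3.85 ± 0.30 (adjusted p 2.94e-05), Bst2 at -3.79 ± 0.20 (adjusted p 5.39e-06), Zbp1 at -3.56 ± 0.47 (adjusted p 0.000442), Lgals3bp at -3.27 ± 0.21 (adjusted p 1.37e-05), Ifit3 at -3.17 ± 0.19 (adjusted p 9.06e-06), Gbp3 at -3.0 ± 0.22 (adjusted p 2.19e-05), Rtp4 at -2.99 ± 0.30 (adjusted p 0.000105) and Irf7 at -2.39 ± 0.25 (adjusted p 0.000127). The other 18 were lower by log2 differences of -2.39 to -0.49. The 7 not past the threshold were Irf9, Oas1g, Oas2, Usp18, Ifih1, Parp9 and Dtx3l. In the same libraries, 5 of 5 macrophage markers were lower in epidermis, at 12.8 to 14.7 RPKM against 686 to 717 RPKM. Also lower there were 6 of 6 fibroblast markers, with a median of -4.88, 5 of 5 endothelial markers, with a median of -5.02, 3 of 3 adipocyte markers, with a median of -4.68, and 5 of 5 mast cell markers, with a median of -2.96. The part of any of these cells in the difference was not tested.

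**Figure D4:**
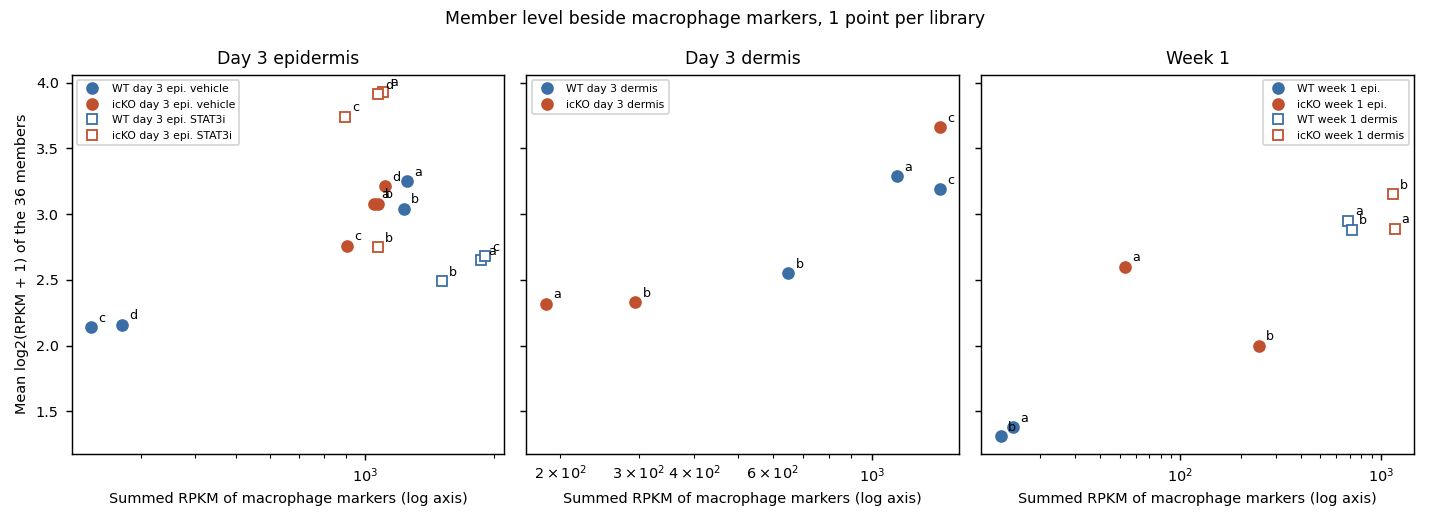
Mean log2(RPKM + 1) of the 36 members against the summed RPKM of macrophage markers (6 at day 3, 5 at week 1, log axis), with 1 point per library and 1 panel per table. In day 3 epidermis, WT vehicle c and d are low on both axes, icKO STAT3i a, c and d are high in members at a macrophage sum close to that of the icKO vehicle libraries, and in week 1 epidermis icKO a is higher in members and lower in macrophage markers than icKO b.

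Transcripts of the 11 interferon genes chosen for the signalling list were near 0, and other interferon genes were not looked at. Among the 11, the highest value in any library was 0.336 RPKM, for Ifnz in WT vehicle epidermis. Ifnb1, the beta interferon, reached at most 0.0839 RPKM. Interferon gamma reached 0.238 RPKM. At such levels no difference between groups was detectable.

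The receptors were present, and some changed. Under the inhibitor, Ifnar1, a subunit of the type I receptor, was lower in icKO than in WT by 0.41 ± 0.14 (adjusted p 0.0305). Ifngr1, a subunit of the gamma receptor, was lower in the same comparison by 0.66 ± 0.12 (adjusted p 0.00117). Within icKO, from vehicle to inhibitor, neither passed in limma. Ifnar1 changed there by -0.14 ± 0.13 (adjusted p 0.531) and Ifngr1 by -0.24 ± 0.11 (adjusted p 0.19). In week 1 epidermis Ifngr1 fell by 2.22 ± 0.26 (adjusted p 0.00352) and Ifnlr1, the type III receptor subunit, by 1.68 ± 0.21 (adjusted p 0.00408), while Ifnar2 rose by 1.25 ± 0.29 (adjusted p 0.0188). Over the list of 41 genes of interferons, receptors and signalling, 6 of 30 tested were higher and 6 lower in icKO than in WT under the inhibitor. In week 1 epidermis 5 of 27 were higher in icKO and 12 lower. The shares of all genes were 19.9% higher and 14.1% lower in the first comparison and 11.7% higher and 43.6% lower in the second. From vehicle to inhibitor in WT, 13 of 30 genes of this list rose and 0 fell, where 10.9% of all genes rose and 7.86% fell.

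Socs1, an inhibitor of JAK signalling, rose in icKO in vehicle-treated day 3 epidermis by 1.00 ± 0.17 (adjusted p 0.00475), where no member passed. It also rose under the inhibitor, by 0.78 ± 0.19 (adjusted p 0.00645), and in week 1 epidermis, by 0.99 ± 0.19 (adjusted p 0.0105).

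A list of 45 further interferon-stimulated genes, which shares some genes with the signalling list, was counted in the same way. In vehicle 0 of 41 tested were called in either direction, against 12.8% of all genes. Under the inhibitor 16 of 41 rose and 1 fell, with a median of 0.34, among them Apol9a at 2.38 ± 0.48 (adjusted p 0.00231), while Ifi205 fell. In week 1 epidermis 8 of 30 rose and 4 fell, among them Slfn2 at 3.70 ± 0.25 (adjusted p 0.00172) and Ifitm3, which blocks viral entry, at 1.86 ± 0.22 (adjusted p 0.00372), and in week 1 dermis 5 of 38 rose and 10 fell. Of all genes, 19.9% rose and 14.1% fell under the inhibitor, 11.7% and 43.6% in week 1 epidermis, and 8.41% and 40.9% in week 1 dermis. Of 29 genes of interferon gamma response and antigen presentation, 8 of 27 rose and 1 fell under the inhibitor, while 4 of 20 rose and 6 fell in week 1 epidermis, and 0 of 27 rose and 9 fell in week 1 dermis, to be read against the same shares. Between the WT tissues, 28 of 37 further interferon-stimulated genes and 18 of 27 genes of the gamma list were lower in epidermis, where 33.9% of all genes were.

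Cxcl10, a chemokine induced by interferon, rose under the inhibitor, from 1.72, 2.45 and 1.21 RPKM in WT to 13.3, 2.91, 6.6 and 11.3 RPKM in icKO, a change of 1.63 ± 0.44 (adjusted p 0.0127). Its library b was again the lowest of the 4.

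The promoter classes can be set beside these calls. Of the 12 members with an ISRE core, 8 rose in icKO under the inhibitor, as did 7 of the 14 whose window held none. Isg15 and Ifit1, printed above with 3 and 2 cores, had the largest changes under the inhibitor, but Ifit3, with 2 cores, and Rsad2, with 1, were not past the threshold there. These counts are a description of small numbers, and no difference between the classes was tested.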

How the data were processed

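Total RNA of epidermis and dermis was converted to cDNA with the NEBnext kit and to libraries with the NuGen kit, per the labels' protocols, and reads were aligned to mm10 with TopHat2 2.1.0 and quantified with Partek, per the submitters' processing notes. The deposited values are RPKM, which the authors computed per gene for day 3 epidermis and per transcript for the other tables, and the library counts of alignments or reads are deposited beside them. RPKM divides by transcript length and by the reads of each library, so a shift in a few abundant genes moves all others, and strand use in counting was not given in the sources used here. Transcripts were summed per symbol after 832 exact duplicate lines were dropped from the day 3 dermis table. Where 2 of the 29 samples, both of week 1 epidermis, carry a genotype field that disagrees with their title, the title and the table header were followed. Column names carry no replicate numbers, so libraries were matched to groups only.

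Log2(RPKM + 1) was fitted with limma 3.58.1 (trended prior) in R 4.3.3 within each table, keeping genes at or above 1 RPKM in a number of libraries no lower than the size of the smaller group. The 4 day 3 epidermis groups shared 1 fit, as did the 4 week 1 groups for the tissue comparison and interaction, and the other comparisons used their 2 groups. Tests were two-sided, adjusted by Benjamini-Hochberg over all genes tested, with calls at an adjusted p under 0.05. Comparisons that share groups are not independent. The script was tested on simulated data. Members, marker lists and pathway lists were chosen with earlier results of these data known. Values by library are given for 13 fixed members and for members called where 8 or fewer were called, and otherwise full statistics for the 8 largest changes. Alternatives were another pseudocount, no filter, quantile normalization, other sets of libraries in the fit, a term for sex, averaging the closest libraries, the highest transcript entry and leaving out each library. Promoter windows are from RefSeq, build GRCm38.p6. The authors' own comparison tables were not used.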

Additional observations from a re-analysis of the deposited data

Results flagged for a closer look

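In day 3 epidermis, 57 sets of 4 libraries were examined for a library far from the others, and 10 were marked. Chance would mark about 1 in 20 of independent sets. The sets here are members in the same few groups of libraries and vary together, so 10 of 57 cannot be read against that rate. The rule also assumes separate libraries, while icKO vehicle a and b and icKO STAT3i a and d were unusually alike. In icKO vehicle, library c was low for Isg15 at 9.27 RPKM (the others 15.8 to 16.8 RPKM), for Ifit1 at 3.62 RPKM (6.17 to 6.66 RPKM), for Oas1a at 6.25 RPKM (9.58 to 10 RPKM) and for Zbp1 at 2.75 RPKM (4.69 to 4.81 RPKM). In the same group, library d was high for Ifit3 at 8.72 RPKM (6.32 to 6.65 RPKM). In icKO STAT3i, library b was low for Ifit1 at 2.69 RPKM (15.6 to 17.6 RPKM), for Bst2 at 22.2 RPKM (48.7 to 50.1 RPKM), for Oas2 at 5.24 RPKM (13.5 to 13.6 RPKM) and for Rtp4 at 8.17 RPKM (27.3 to 28.7 RPKM). Its mean log2 level over the 36 members was 2.75, where the others had 3.74 to 3.93.

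The change from WT to icKO at week 1 differed between epidermis and dermis for 11 of the 33 members tested in limma, all 11 with a more positive change in epidermis, where 32.5% of the 13539 genes tested were called and 15.3% in that direction. The difference of log2 changes, epidermis minus dermis, was 2.67 for Zbp1, 2.6 for Lgals3bp, 2.52 for Ifit1, 2.48 for Isg15, 2.31 for Ifi27l2a, 2.2 for Bst2, 1.99 for Rtp4, 1.31 for Oas1a, 1.28 for Gbp3, 1.27 for Irf7 and 0.847 for Dhx58.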

How the results depend on the processing

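Of 254 recomputed counts of members called, 212 stayed within 1.5 times the reported count and 42 did not. Higher and lower counts were scored separately, and a count of 0 that stayed at 0 is among the 212. For day 3 epidermis in vehicle, 1 member was higher without WT b and icKO c, and 0 to 1 when each library was left out. For the STAT3 inhibitor comparison of genotypes, the count of 23 was 0 with a term for sex and 1 with the closest pairs averaged, and 9 to 27 with each library left out. For the inhibitor in icKO, the count of 1 was 0 with the 2 groups fitted alone, 0 with the closest pairs averaged and 0 without WT b and icKO c, with a range of 0 to 3. For the inhibitor in WT, 1 member was higher without WT b and icKO c, with a range of 0 to 2, and for the interaction the range was 0 to 1. In day 3 dermis 0 to 9 members were lower. In week 1 epidermis the range was 0 to 23 higher and 0 to 8 lower, and 1 was lower with all 8 libraries in 1 fit. In week 1 dermis the count of 4 was 0 with no filter, 13 with quantile normalization, 2 with all 8 libraries in 1 fit and 2 with the highest transcript entry, with a range of 1 to 6. Between WT tissues 1 member was higher with quantile normalization, and for the tissue by genotype interaction the range was 4 to 22 higher and 0 to 1 lower. All of these are counts of members alone, without the share of all genes called under each setting. The causes were not tested.

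Of 615 recomputed changes of single members, 504 kept their direction and side of the threshold, 105 lost the call, 2 gained it and 4 changed sign. In week 1 dermis the log2 change of Isg15 was 0.329 with quantile normalization and -0.214 to 0.166 with each library left out, turning positive without WT a (0.125) or icKO a (0.166). In day 3 dermis that of Irf7 was -0.0243 to 0.53, negative without icKO c. No paired analysis was possible because the table columns carry no replicate numbers. RPKM tables without counts per gene give no counting error for members near 0, such as Ifit3 and Rsad2 in week 1 epidermis.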
